A study of Homo sapiens with 3 samples.

Results

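Hyaluronan is a long, unbranched sugar polymer that cells extrude from the plasma membrane into the space around them. It is built by the hyaluronan synthases (Has1, Has2 and Has3), cut by hyaluronidases such as Hyal2 at the cell surface and Hyal1 in lysosomes, and bound by the surface receptor CD44. Mesothelial cells secrete hyaluronan into the serous cavities, and mesothelioma is known for effusions rich in it. Merlin, the product of Nf2, binds the cytoplasmic tail of CD44, as do the related proteins ezrin, radixin and moesin.

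The genes described are the 7 named hyaluronan genes Has1, Has2, Has3, Hyal1, Hyal2, Cd44 and Tnfaip6, matched by symbol to the 13936 genes of the deposited table. Of these, 5 have a row: Has2 (ENSMUSG00000022367.7), Has3 (ENSMUSG00000031910.14), Hyal1 (ENSMUSG00000010051.15), Hyal2 (ENSMUSG00000010047.12) and Cd44 (ENSMUSG00000005087.17). All 5 entered the test. Has1 and Tnfaip6, whose product TSG-6 loads inter-alpha-inhibitor heavy chains onto hyaluronan, have no row in the table used here and were not analysed.

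The study used AB12, a mouse malignant mesothelioma cell line. AB12 with a hairpin labelled shSC (1 library, taken as the control) was compared with AB12 labelled shNF2 (2 libraries, numbered 20 and 21 in the labels). All 3 were grown in the same serum-supplemented medium, and no further agent is named. The meaning of 20 and 21 is not given: they may mark different hairpins, cultures or preparations, and nothing shows that separate cultures were used. Because shSC has 1 library, the p-values rest on how far the 2 shNF2 libraries differ, moderated over genes. That spread may be technical or may come from different hairpins, which cannot be told apart here. The values were read as mouse, from the Ensembl identifiers and the build mm10 of the submitters' processing notes, although the organism is labelled as human.

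Reads assigned to genes numbered 25837151 to 29532600 per library. Values are scaled counts: the reads of a gene divided by 1 factor per library. Transcript lengths were not used, so levels are compared between libraries and not between genes. Nf2 had 1539 scaled counts in shSC, against 486 in library 20 and 458 in library 21. Of 10 mesothelial markers 5 had a row, summing to 43900, 39947 and 33759 scaled counts in shSC, library 20 and library 21, whereas Wt1, Upk3b, Upk1b, Lrrn4 and Pdpn had none. Krt18 was the largest part of each sum, with 23657, 20443 and 16561, and the 5 genes did not all go the same way. The marker genes are named here as fixed lists, outside the rule for named genes. Msln, which encodes mesothelin, had 7397, 9722 and 8977 scaled counts (log2 fold change 0.34), and the keratin genes Krt8, Krt18 and Krt19 had log2 fold changes of -0.37, -0.36 and -0.86, none of which passed. Krt7 passed as higher (2.19, limma adjusted p = 0.0119), from 51 reads in shSC, 277 in library 20 and 188 in library 21. That call was lost under quantile normalization and without a variance trend, where no gene passed. Of 8 macrophage markers 3 had a row (Cd68, Lyz2 and Cd14) and summed to 3367, 2942 and 1855 scaled counts in the same order. Cd14 made up most of that sum, with 3222, 2576 and 1659, whereas Lyz2 had 56.5, 260 and 108 and Cd68 88.6, 105 and 87.5, and none of the 3 passed the test. Ptprc, Adgre1 (also under its older symbol Emr1), Csf1r and Itgam had none. Of 6 fibroblast markers 2 had a row (Col3a1 and Pdgfra), with sums of 13.6, 20.9 and 21.4, and none of the 4 endothelial or 5 lymphocyte markers had one.

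Has2 fell in the shNF2 libraries and was the only one of the 5 hyaluronan genes that passed the test. Has2 encodes the synthase that makes most hyaluronan in many tissues. It had 192 scaled counts in shSC, against 9.41 in library 20 and 38.9 in library 21. Both shNF2 libraries lay far below shSC, and library 20 lay below library 21. The log2 fold change, on the log2(scaled count + 1) scale, was -3.24 ± 0.64 (SE; 95% interval -4.63 to -1.85; 1 library against 2; limma adjusted p = 0.0347 over 12813 genes). That is a 9.46-fold lower level, and it was the sixth most negative value (rank 6) among all genes tested. The SE, interval and p draw mostly on the spread of other genes (11.9 prior against 1 residual degrees of freedom). For Has2 itself the shNF2 libraries lay 1.94 apart on this scale, so the SE understates its own spread. With no variance trend or with robust moderation the SE was 0.78. In RNA from whole cultures, fewer cells with Has2 transcripts and fewer transcripts per cell cannot be told apart.

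Among all tested genes 0.843% passed in either direction, 0.414% as higher and 0.429% as lower, which is the background for 1 of 5 hyaluronan genes passing. The call on Has2 was lost with TMM scaling (limma adjusted p = 0.0695), robust moderation (0.210), no variance trend (0.350) and quantile normalization (0.647). It was kept by edgeR (quasi-likelihood, adjusted p = 0.0164) and DESeq2 (0.0169), and the log2 fold change ran from -3.28 to -2.71 over all 10 alternatives that kept both shNF2 libraries. With 2 libraries against 1, the smallest p an exact permutation test allows is 0.333.

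The fall of Has2 rested on few reads and differed in size between the shNF2 libraries. The reads behind the scaled counts numbered 197 in shSC, 9 in library 20 and 40 in library 21. Has2 was 20.4-fold lower than shSC in library 20 (exact 95% counting interval 10.5 to 45.2) and 4.93-fold lower in library 21 (3.50 to 7.12). These intervals cover counting error only, and both ratios share the shSC library. The 2 intervals do not overlap.

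Against each other, library 21 held 4.13 times the Has2 level of library 20 (exact 95% counting interval 1.97 to 9.68). On the log2 scale the gap between both shNF2 libraries was 1.94, and 53 of the 12813 tested genes had a larger one. Among the 998 genes whose mean over the 3 libraries was within a factor of 1.5 of that of Has2 (80.0), 5 had a larger gap. Their median gap was 0.31. The mean of Has2 is carried by shSC (192), and the gap lies between only 9.41 and 38.9 scaled counts. These genes are not matched to Has2 for counting error there, so they cannot say how unusual its gap is. Nf2 itself was at nearly the same level in both shNF2 libraries (486 and 458 scaled counts). Without library 20 the log2 fold change of Has2 was -2.27 and without library 21 it was -4.21, each with 1 library a group and so with no test.

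**Figure D1:**
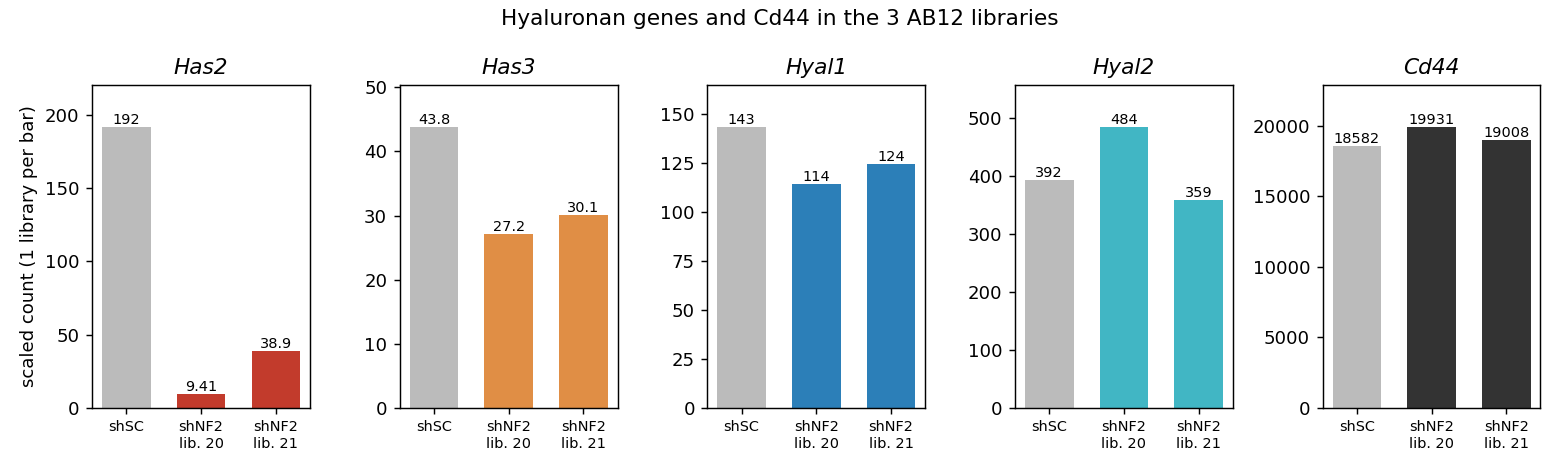
Scaled counts (y axis, linear from 0, a separate scale per gene) of the 5 hyaluronan genes with a row, 1 bar per library: shSC in grey, shNF2 libraries 20 and 21 in colour. Has2 drops from 192 to 9.41 and 38.9, whereas the 3 Cd44 bars lie between 18582 and 19931.

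Has3, the other synthase gene with a row, was lower in both shNF2 libraries without passing the test. It had 43.8 scaled counts in shSC, against 27.2 in library 20 and 30.1 in library 21, from 45, 26 and 31 reads. The shNF2 libraries lay close together, both under shSC. The log2 fold change was -0.60 ± 0.48 (SE; 95% interval -1.62 to 0.43; limma adjusted p = 0.758). The interval, whose spread is moderated over genes, spans a change from 0.324-fold to 1.35-fold. A fall, no change and a modest rise were thus not distinguishable. The counting intervals of the single ratios also held 1, at 0.621 for library 20 (0.368 to 1.03) and 0.688 for library 21 (0.421 to 1.11).

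The balance of the 2 synthase genes differed between libraries, which restates the fall of Has2 and is no separate result. It rests on 45, 26 and 31 Has3 reads in shSC, library 20 and library 21, and has no interval. Has2 had 4.38 reads for each Has3 read in shSC, 0.346 in library 20 and 1.29 in library 21. Without a correction for length these ratios do not say which synthase transcript was more abundant, but their change between libraries does not depend on length. Relative to shSC the ratio was 0.0791 in library 20 and 0.295 in library 21. Summed over Has2 and Has3 without a correction for length, the scaled counts were 236 in shSC, 36.6 in library 20 and 69.0 in library 21.

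The hyaluronidase genes did not pass the test. Hyal1, the lysosomal hyaluronidase, had 143 scaled counts in shSC, against 114 in library 20 and 124 in library 21. Both shNF2 values were a little lower than shSC, and the log2 fold change was -0.26 ± 0.33 (SE; 95% interval -0.99 to 0.46; limma adjusted p = 0.854). Each ratio to shSC had a counting interval that held 1, with 0.797 (0.616 to 1.03) in library 20 and 0.869 (0.680 to 1.11) in library 21.

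Hyal2, a hyaluronidase anchored to the cell surface that starts the breakdown of long chains, had 392 scaled counts in shSC, against 484 in library 20 and 359 in library 21. Here the shSC value lay between the shNF2 libraries, so the groups overlapped. By counting error alone library 20 was 1.23 times shSC (1.08 to 1.41), library 21 was 0.914 times shSC (0.792 to 1.06) and library 21 was 0.741 times library 20 (0.644 to 0.851), so both shNF2 libraries differed from each other by more than counting error. The log2 fold change was 0.09 ± 0.28 (SE; 95% interval -0.52 to 0.69; limma adjusted p = 0.954), with 0.30 in library 20 and -0.13 in library 21. Summed over Hyal1 and Hyal2, the scaled counts were 536 in shSC, 598 in library 20 and 483 in library 21, again with shSC in the middle.

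Cd44, which encodes the main hyaluronan receptor, stayed within a narrow range. It had 18582 scaled counts in shSC, against 19931 in library 20 and 19008 in library 21, from 19053 to 19555 reads per library. Both shNF2 libraries were slightly above shSC. The log2 fold change was 0.07 ± 0.22 (SE; limma adjusted p = 0.955), and its 95% interval of -0.40 to 0.54 corresponds to 0.755-fold to 1.45-fold. By counting error alone library 20 was 1.07 times shSC (1.05 to 1.09) and library 21 was 1.02 times (1.003 to 1.04). The interval of the fit is far wider than these because its spread is moderated over genes. For Cd44 itself, library 21 minus library 20 was only -0.07 on the log2 scale. Counts per gene do not separate the CD44 splice forms, so shifts between standard and variant forms were not measured.

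Over the 5 genes, 3 were below shSC in both shNF2 libraries (Has2, Has3 and Hyal1) and 1 was above it in both (Cd44). Of all tested genes 35.8% were below shSC in both and 36.1% were above it in both. The median log2 fold change of the 5 genes was -0.26, beside -0.0043 for all tested genes.

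**Figure D2:**
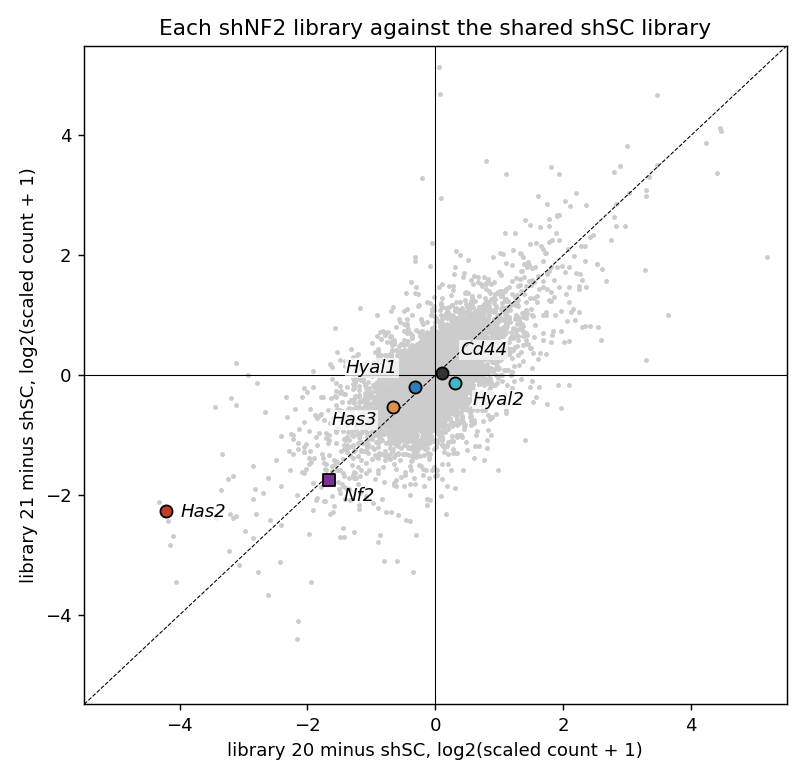
Difference from shSC in library 20 (x axis) and library 21 (y axis), both on the log2(scaled count + 1) scale, for the 12813 tested genes in grey, the 5 hyaluronan genes in colour and Nf2 as a square. Both axes subtract the same shSC library, so part of the slope is shared by construction; Has2 lies at -4.21 and -2.27, to the left of the dashed line of equal difference.

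The rest of the hyaluronan pathway was read from 5 lists by role, with 53 gene symbols in all, of which 31 had a row and 29 were tested. Only Nf2, listed as a partner of CD44, passed the test in these lists (log2 fold change -1.70 ± 0.24, SE, limma adjusted p = 0.00555, a call lost under quantile normalization at 0.496 and without a variance trend at 0.187). Nf2 is the gene that the shNF2 label names, so its call is no result about the pathway. The other 28 tested genes were not called, and among all tested genes 0.843% were. The median log2 fold change over the 29 genes was 0.05.

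Hyaluronan synthases use UDP-glucuronic acid and UDP-N-acetylglucosamine, and none of the 9 tested genes of that supply passed, with a median log2 fold change of 0.019. Ugdh, which makes UDP-glucuronic acid, had 7076 scaled counts in shSC, against 7875 in library 20 and 7582 in library 21. That is a log2 fold change of 0.13 ± 0.21 (SE), so the enzyme that commits UDP-glucose to this precursor showed no change beyond its error. Ugp2, which makes UDP-glucose, had a log2 fold change of -0.20 ± 0.21 (SE). Gnpnat1, an acetyltransferase of the hexosamine pathway, had -0.38 ± 0.21 (SE; limma adjusted p = 0.637). Gfpt1, the enzyme that opens that pathway, is named here after its values were seen: it had the lowest log2 fold change of the list, -0.52 ± 0.21 (SE; limma adjusted p = 0.444), from 2135 scaled counts in shSC to 1475 and 1501.

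None of the 4 tested genes among other factors of hyaluronan breakdown passed (median 0.22). Hexa, which encodes a lysosomal hexosaminidase subunit, had a log2 fold change of 0.06 ± 0.21 (SE). Gusb, which encodes lysosomal beta-glucuronidase, had 0.38 ± 0.22 (SE; limma adjusted p = 0.664). The list's extremes were 2 genes for factors of hyaluronan depolymerization. Tmem2 had 174 scaled counts in shSC, against 285 in library 20 and 338 in library 21 (log2 fold change 0.83 ± 0.29, SE; limma adjusted p = 0.328). Cemip, named after its values were seen, had 37.0, 16.7 and 16.5 (-1.11 ± 0.53, SE; adjusted p = 0.564). For both genes the shNF2 libraries lay on the same side of shSC, and neither difference passed the test.

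Among the other hyaluronan receptors 4 were tested and none passed (median 0.06, but -0.065 without library 20 and 0.18 without library 21). Hmmr, which encodes RHAMM, a hyaluronan-binding protein that also acts at the mitotic spindle, had 3558 scaled counts in shSC, against 4788 in library 20 and 4896 in library 21. Its log2 fold change was 0.44 ± 0.21 (SE; limma adjusted p = 0.538). Layn, which encodes layilin, had -0.12 ± 0.22 (SE), and Tlr4, an innate immune receptor reported to respond to hyaluronan fragments, had -0.27 ± 0.21 (SE).

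Of 15 genes listed for matrix proteins that bind hyaluronan or are associated with it, only Acan and Vcan had a row. Neither passed (median -0.15, but 0.041 without library 20 and -0.34 without library 21). Acan, which encodes aggrecan, had 389 scaled counts in shSC, against 295 in library 20 and 186 in library 21 (log2 fold change -0.73 ± 0.32, SE; limma adjusted p = 0.5004). Vcan, which encodes versican, had only 8, 6 and 19 reads, and its log2 fold change of 0.44 ± 0.75 (SE) had opposite signs in both libraries.

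Around CD44, 10 genes of a list called CD44 partners here were tested (median 0.14). The list also holds genes for proteases and splicing. Only Nf2, the gene named by the hairpin label, passed. The kin of merlin that link CD44 to actin did not pass: Msn, which encodes moesin, had 9454 scaled counts in shSC, against 9977 in library 20 and 13385 in library 21 (log2 fold change 0.29 ± 0.23, SE). Rdx, which encodes radixin, had 0.23 ± 0.22 (SE). In both genes library 21 stood above the other 2 libraries, which lay close together. Ezr, which encodes ezrin and is named after its values were seen, was lower in both shNF2 libraries, with 7010, 6542 and 6000 scaled counts in shSC, library 20 and library 21 (log2 fold change -0.16 ± 0.21, SE). Spp1, which encodes osteopontin, a further ligand of CD44, had 290014 scaled counts in shSC, against 158074 in library 20 and 173592 in library 21. Its log2 fold change of -0.81 ± 0.29 (SE) did not pass (limma adjusted p = 0.350; edgeR 0.164; DESeq2 0.0720), and under quantile normalization it was -0.31.

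**Figure D3:**
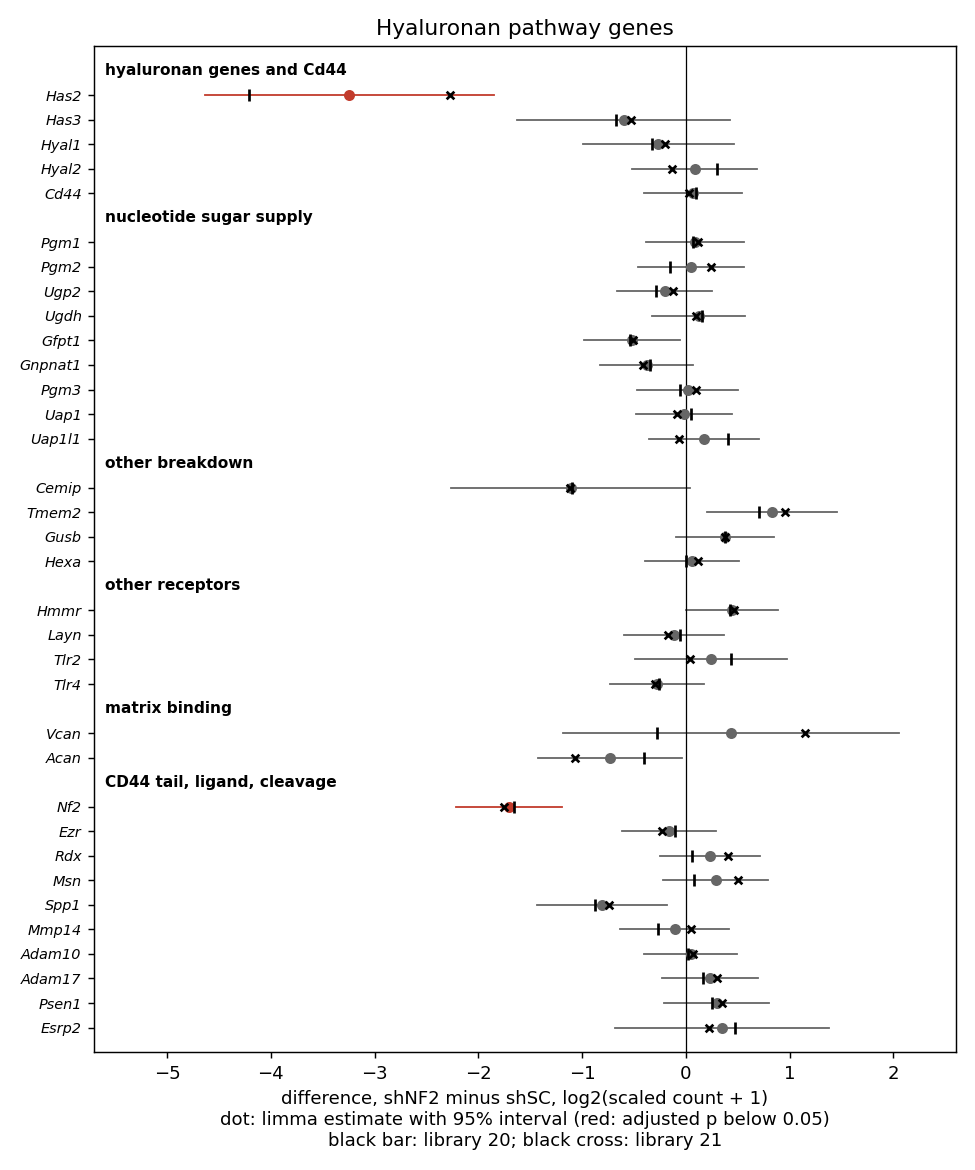
Difference between shNF2 and shSC on the log2(scaled count + 1) scale (x axis) for the 5 hyaluronan genes with a row and the 29 tested genes of the pathway lists (y axis, by role). Dots are limma estimates with 95% intervals, black bars library 20 and black crosses library 21; Has2 at -3.24 and Nf2 at -1.70 are the 2 genes in red, which passed the test.

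The genes whose pattern over the 3 libraries was nearest to that of Has2 were found by the Euclidean distance between pairs of log2 differences from shSC. Candidates were 9499 tested genes with a mean of at least 100 scaled counts, a floor that Has2 itself (80.0) does not reach. Unnamed gene models, such as Gm numbers or Rik clones, were left out. The nearest 5 were Lilr4b (distance 0.19), Anxa10 (0.56), Ccr1 (0.92), Mmp13 (1.06) and Ceacam1 (1.10). They encode a leukocyte immunoglobulin-like receptor, an annexin, a chemokine receptor, a collagenase and an adhesion molecule. Lilr4b, the nearest, had 543 scaled counts in shSC, against 26.2 in library 20 and 124 in library 21, a likeness fixed by how the gene was chosen. The leukocyte-type genes Lilr4b and Ccr1 stood beside macrophage markers that had no row (Ptprc, Adgre1, Csf1r and Itgam) and a macrophage list whose members went different ways (Cd14 3222, 2576 and 1659, Lyz2 56.5, 260 and 108, Cd68 88.6, 105 and 87.5 scaled counts in shSC, library 20 and library 21; summed 3367, 2942 and 1855). Whether the cultures held any leukocytes, and whether these had a part in the Has2 result, was not tested. For Cd44 the nearest were Ppip5k1, Ccdc59, Ppm1m, Ext2 and Aagab, all within a distance of 0.0097 and none passing the test.

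**Figure D4:**
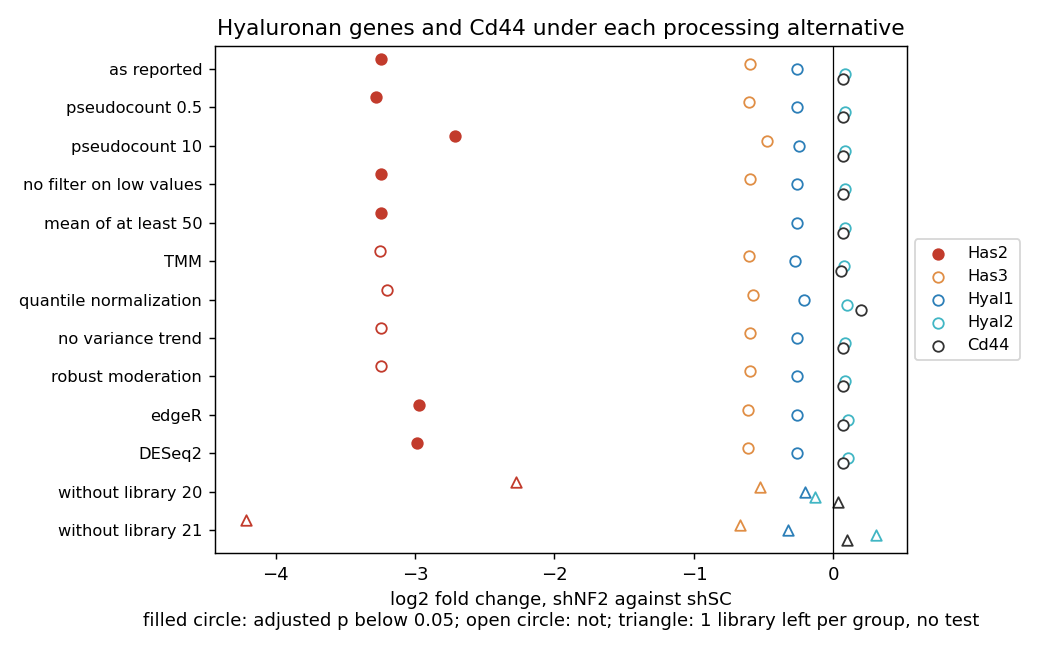
Log2 fold change of shNF2 against shSC (x axis) of the 5 hyaluronan genes under the reported setting and each alternative (y axis). Filled circles passed an adjusted p of 0.05, open circles did not, and triangles leave 1 library a group and have no test; Has2 stays between -4.21 and -2.27 throughout, and its circle is open under TMM, quantile normalization, no variance trend and robust moderation.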

How the data were processed

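RNA of 3 AB12 libraries was sequenced after polyA selection with a stranded kit, per the labels' protocols. The authors deposited 1 table of gene signal, whose name describes scaled counts. Named without role or order in the submitters' processing notes are DESeq 1.22.1, HTSeq 0.5.3, STAR 2.5.0a and cutadapt 1.6. The strand setting of the counting is stated in none of the sources used here. Multiplying each library by its own factor (shSC 1.03, library 20 0.956, library 21 1.03) turned 100% of values into whole reads, within 0.001 reads. The recovered read counts gave the count tests and counting intervals. The smallest total was 15 reads, and 4 rows that name no gene, with 47.7% to 48.7% of all reads, were left out.

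In R 4.3.3, limma 3.58.1 with a variance trend tested log2(scaled count + 1) in 12813 genes whose mean reached 10, at a Benjamini-Hochberg adjusted threshold of 0.05. Fold changes on this scale are too small for low genes. Only the 2 shNF2 libraries inform the spread (1 residual and 11.9 prior degrees of freedom), and shSC is taken to vary as they do. edgeR 4.0.16 and DESeq2 1.42.0 on the recovered reads, with the deposited scaling, were alternatives, beside other pseudocounts, filters, scalings and variance models. limma called 53 genes higher and 55 lower, edgeR 42 and 69, and DESeq2 41 and 57. Fitting was tested on simulated data. Counting intervals are exact conditional binomial ones and PCR reads are not independent molecules.

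The genes described and the pathway lists were chosen with earlier results of these data known. Named genes are the 7 hyaluronan genes, Nf2, list genes that passed, the 3 genes of each list with the largest mean scaled count, and the 5 nearest genes to Has2 and Cd44; others are said to have been named after their values were seen, and marker genes come from fixed lists. A listed gene is not reported here and was left out of its list's counts, which brings Tmem2 among the 3 genes named for that list. No mouse sequence or coordinates were used here.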

Additional observations from a re-analysis of the deposited data

How the results depend on the processing

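Without a filter on low values limma called 110 genes higher and 122 lower. Under quantile normalization it called 0 and 0 (882 genes had an unadjusted p under 0.05). With no variance trend it also called 0 and 0 (1036 genes had such a p), whereas edgeR called 42 and 69 and DESeq2 41 and 57. For Has2 the log2 fold change was -3.25 with TMM (limma adjusted p = 0.0695), -3.20 under quantile normalization (0.647), -3.24 without a variance trend (0.350) and -3.24 with robust moderation (0.210); the other 6 alternatives kept its call. Has3, Hyal1, Hyal2 and Cd44 kept their sign and missed the threshold under every alternative that kept both shNF2 libraries; Has3 has no value with a mean of at least 50. Leaving out 1 shNF2 library gave values with no test, from -4.21 to -2.27 for Has2, -0.67 to -0.53 for Has3, -0.33 to -0.20 for Hyal1, -0.13 to 0.30 for Hyal2 and 0.03 to 0.10 for Cd44, and gave no count of calls. The median of the sugar supply list (0.019) was 0.0091 with TMM, -0.024 under quantile normalization, 0.021 with edgeR and 0.021 with DESeq2, and -0.0619 to -0.0597 with 1 shNF2 library left out. With a mean of at least 50 the medians were 0.38 for other breakdown genes (0.18 under quantile normalization), -0.73 for matrix proteins (-0.15 as reported, -0.012 with edgeR) and 0.047 for CD44 partners, since fewer genes were tested. With 1 shNF2 library left out the medians ran from 0.039 to 0.145 for CD44 partners, -0.065 to 0.18 for other receptors, -0.34 to 0.041 for matrix proteins and 0.19 to 0.25 for other breakdown genes. No paired analysis was possible because there is 1 shSC library and it carries no number. Has2 and Has3 are limited by depth, with 9 to 197 and 26 to 45 reads per library.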

Other observations

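A pair of further hyaluronan genes lay under the filter on low values and were not tested; they are named after their values were seen. Hyal3, a hyaluronidase gene with weak or uncertain enzyme activity, had 6 reads in shSC, 5 in library 20 and 7 in library 21. Stab1, which encodes the scavenger receptor stabilin-1, a relative of the hyaluronan clearance receptor stabilin-2, had 16, 5 and 7 reads in the same order. At these depths only large differences would be detectable.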
